A study of Mus musculus with 6 samples.

Results

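The estrogen-related receptors and their PGC-1 coregulators were examined in the duodenal epithelium of WT and *Esrra*-/- mice. The 10 genes were chosen by symbol from the 22611 genes of the expression table. They are the 3 receptors (*Esrra*, *Esrrb*, *Esrrg*), the PGC-1 coactivators (*Ppargc1a*, *Ppargc1b*, *Pprc1*), *Perm1*, and the corepressors *Nrip1*, *Ncor1* and *Prox1*. RNA-seq was performed on 3 WT mice and 3 *Esrra*-/- littermates (ESRRAKO in the sample labels), with 1 library per mouse, and both genotypes ate a high-fat diet for about 8 weeks. The *Esrra*-/- mice carry a germline null allele, so that *Esrra* is lost in every tissue and not in the epithelium alone, and the colony was bred with *Villin-CreERT2* and floxed *Esrra* alleles, whose presence in these mice is not stated. Mice of both sexes were used, and the age of these mice was not given in the sources used here. The question addressed is what loss of this receptor does to its relatives and to the proteins that switch it on and off.

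The estrogen-related receptors are orphan nuclear receptors. They bind DNA at the extended half-site TCAAGGTCA without a known natural hormone, and their activity is set by the coregulators that dock on them. The PGC-1 proteins are the best known of their coactivators and act as protein ligands that drive genes of mitochondrial respiration. NRIP1 (RIP140), NCOR1 and PROX1 hold the same receptors or their coactivators back, and *Perm1* is a muscle-enriched gene that is induced by PGC-1 through these receptors.

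The sequence upstream of *Esrra* is shown because the gene carries the binding motif of its own product. In mm9, *Esrra* (ENSMUSG00000024955.7) is a minus-strand gene of chromosome 19 at 6985467 to 6996303, and within 1000 bases of the annotated gene start on either side it held 2 matches to AAGGTCA, the core of the motif. Both lay upstream on the strand opposite to the gene, at positions −555 and −532 relative to the gene start, and the second was part of a full TCAAGGTCA. The stretch is chr19:6996783-6996903, given 5′ to 3′ on the strand of the gene, with capitals for the reverse complement of AAGGTCA.
Esrra: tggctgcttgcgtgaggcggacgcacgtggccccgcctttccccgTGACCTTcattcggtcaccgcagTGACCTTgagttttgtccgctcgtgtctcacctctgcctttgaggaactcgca
*Perm1*, at 155590036 to 155595416 on the plus strand of chromosome 4, held 5 matches to AAGGTCA and no TCAAGGTCA in its window. The stretch with the match upstream of the gene start is chr4:155589786-155589886, written in the same way.
Perm1: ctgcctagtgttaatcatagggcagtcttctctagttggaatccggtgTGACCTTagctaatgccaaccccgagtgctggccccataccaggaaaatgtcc
*Esrrb* and *Esrrg* held 1 match to AAGGTCA each, and no match was found in the windows of *Ppargc1a*, *Ppargc1b*, *Pprc1*, *Nrip1*, *Ncor1* and *Prox1*. Of the windows of 22077 protein-coding genes searched in the same way on both strands, 29.4% held AAGGTCA at least once, 5.37% held it at least 2 times and 4.22% held TCAAGGTCA, whose matches are also counted for AAGGTCA. A match describes the sequence and is not a measured binding site.

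Expression was deposited as FPKM, which corrects fragment numbers for transcript length and for the total mapped in each library, so levels of different genes can be set side by side. The sum of all FPKM ranged from 707094 to 999902 per library, and the ratios of low values gave the other 5 libraries a scaling of 0.827 to 1.025 relative to WT replicate 1. WT replicate 3 and *Esrra*-/- replicate 3 were the libraries with the highest sums in their genotype, and their transcripts of 4 genes on chromosome Y summed to 0.0487 and 0.222 FPKM, against 27.3 to 46.7 FPKM in the other 4. The epithelial origin was checked with 12 markers of villus enterocytes, whose summed level was 40337 to 65563 FPKM in WT and 49837 to 69674 FPKM in *Esrra*-/-. Their log2 fold changes were positive for 11 of 12, with a median of 0.27, and 0 were called or reached an unadjusted p under 0.05 in limma. Summed markers were 0.209 to 2.55 FPKM for fibroblasts over all 6 libraries, and for immune cells 92.2 to 147 FPKM in WT and 73.9 to 185 FPKM in *Esrra*-/-. Blood endothelial markers summed to 0.699 to 2.27 FPKM in WT and 1.95 to 3.92 FPKM in *Esrra*-/-, and *Tek*, the 1 of 6 that was tested, was called higher (log2 fold change 2.01, adjusted p = 0.397 from limma), although its genotypes overlapped. All 10 crypt markers had negative log2 fold changes, and their sums were 228 to 360 FPKM in WT and 119 to 269 FPKM in *Esrra*-/-, and 1 of them was called lower. Of 5 Paneth cell markers, 3 were called lower, with sums of 7449 to 15932 FPKM in WT and 1554 to 6844 FPKM in *Esrra*-/-. Fewer cells of a type and less RNA per cell cannot be told apart in these bulk samples.

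Of the 10 genes, 7 had a mean above 1 FPKM and were tested, and 1 of them was called. A call needs a difference on the log2(FPKM + 0.1) scale, *Esrra*-/- minus WT, beyond 0.58 in size together with an unadjusted limma p under 0.05. That rule called 3.28% of all 10596 genes tested lower and 1.35% higher, 4.63% in all. An unadjusted p under 0.05 alone was reached by 10.8% of the genes and an adjusted p under 0.05 by 0.0378%, *Esrra* among them. *Esrra* was the gene called lower. The coactivators and corepressors that were tested did not pass in either direction.

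**Figure D1:**
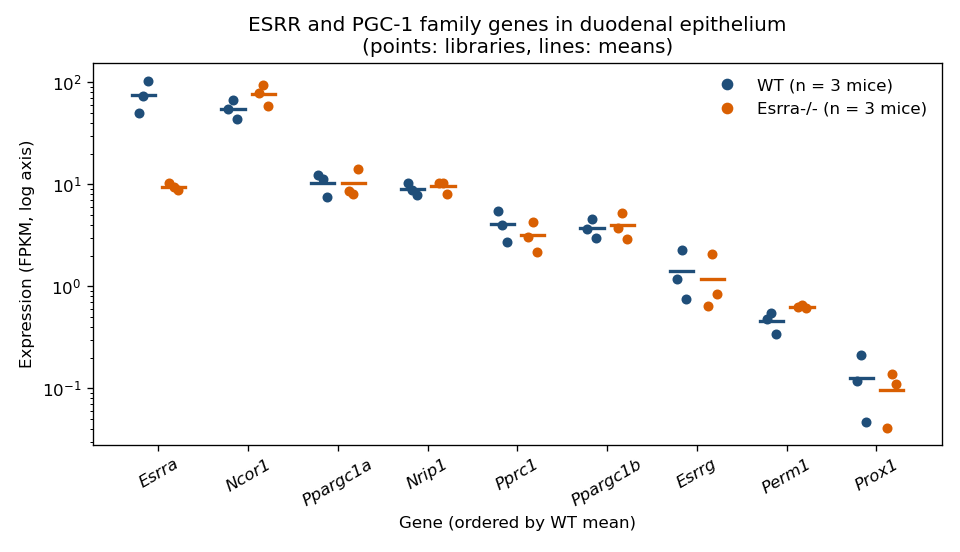
Expression of the 9 genes listed above 0 in FPKM on a log axis, ordered by their WT mean, with a point for each library and a line for the mean of each genotype. *Esrra* ranged from 49.4 to 103.6 FPKM in WT and from 8.72 to 10.4 FPKM in *Esrra*-/-, and *Perm1* is the other gene whose genotypes do not overlap.

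*Esrra* was the most abundant of the 10 genes by its WT mean. It had 49.4, 73.5 and 103.6 FPKM in WT replicates 1 to 3 and 10.4, 9.42 and 8.72 FPKM in *Esrra*-/- replicates 1 to 3. Each *Esrra*-/- library lay below each WT library, as was the case for 9.14% of all genes tested. The means were 75.5 ± 27.2 FPKM in WT and 9.50 ± 0.820 FPKM after deletion (SD, n = 3), so 12.6% of the WT level was left. On the log2 scale *Esrra* fell by 2.92 (95% interval of the change −3.52 to −2.32, adjusted p = 0.0215 from limma). In WT the gene stood at the 94.9th percentile of all 22611 genes by mean level, and in *Esrra*-/- at the 75.6th. The two-sided exact permutation test gave p = 0.1, the smallest that 3 mice against 3 allow, and 0.45 after adjustment over the 9 genes listed above 0. The fit with the replicate number as a block gave an adjusted p of 0.0709, and leaving out 1 library in turn gave 0.0229 to 0.185. It stayed under 0.05 without WT replicate 1 and without *Esrra*-/- replicate 2, and was highest without WT replicate 2. The remaining signal is a value for the whole gene, so it does not show which exons are left, and the gene overlaps the neighbouring *Trmt112* by 73 bases on the opposite strand. *Trmt112*, an activator of methyltransferases that was singled out for this overlap, had 25.3 to 36.5 FPKM in WT libraries and 41.7 to 51.1 FPKM in *Esrra*-/- libraries, and was called higher (log2 fold change 0.65, adjusted p = 0.308 from limma). Since the library kit does not mark strand, reads from the shared bases cannot be assigned to one gene.

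The coefficient of variation of *Esrra* was 36.0% in WT and 8.64% in *Esrra*-/-, and this difference in spread was not tested. Among WT libraries the highest value was that of replicate 3, which lacks Y-linked transcripts. That library also had the highest sum of villus markers in WT, 65563 FPKM, and the lowest of crypt markers, 228 FPKM. The part of these traits in the level of *Esrra* was not tested. With both libraries lacking Y-linked transcripts left out, the log2 fold change was −2.60 (limma, adjusted p = 0.19).

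*Esrrg*, the relative of *Esrra* best known from heart, kidney and brain, was expressed at a low level. Its values were 1.19, 2.25 and 0.758 FPKM in WT and 0.638, 2.08 and 0.843 FPKM in *Esrra*-/-, so replicate 2 was the highest in both genotypes and the genotypes overlapped. The log2 fold change was −0.26 with a 95% interval of −1.50 to 0.98 (adjusted p = 0.883 from limma). It became 0.13 without WT replicate 2 and 0.06 without *Esrra*-/- replicate 1, so its sign rests on single libraries. *Esrrb*, the family member known from embryonic stem cells, was listed at 0 in all 6 libraries, and its depth-dependent limit cannot be given from FPKM.

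Because *Esrra* fell, the makeup of the receptor pool shifted within each library. *Esrrg* made up 2.36%, 2.97% and 0.727% of the summed receptor FPKM in WT replicates 1 to 3, against 5.81%, 18.1% and 8.82% after deletion. Each *Esrra*-/- share was above each WT share, while the level of *Esrrg* itself overlapped. The sum of the 3 receptors was 50.6, 75.8 and 104 FPKM in WT and 10.99, 11.5 and 9.56 FPKM in *Esrra*-/-. *Esrra* therefore remained the main receptor transcript in *Esrra*-/- libraries too, by FPKM over the whole gene. The allele is a null allele, so this level does not stand for receptor protein. These shares follow from the fall of the targeted gene and were not tested.

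**Figure D2:**
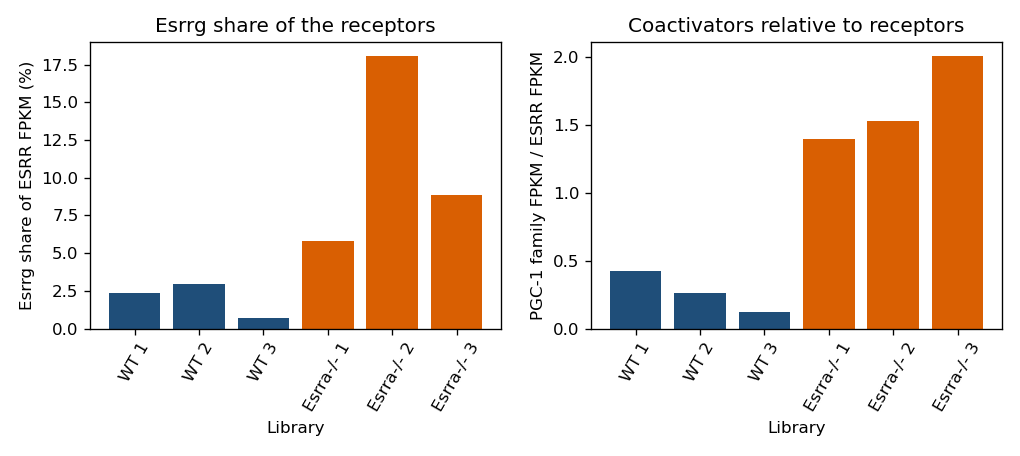
Left, *Esrrg* as a percentage of the summed FPKM of *Esrra*, *Esrrb* and *Esrrg* in each library; right, the summed FPKM of *Ppargc1a*, *Ppargc1b* and *Pprc1* divided by that of the receptors. The ratio on the right was 0.126 to 0.425 in WT and 1.40 to 2.004 in *Esrra*-/-. Its divisor is mostly *Esrra*, the targeted gene.

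The PGC-1 coactivators kept a summed level that overlapped between genotypes. Together *Ppargc1a*, *Ppargc1b* and *Pprc1* had 21.5, 19.9 and 13.1 FPKM in WT replicates 1 to 3 and 15.3, 17.6 and 19.2 FPKM in the *Esrra*-/- replicates. Set against the receptors, coactivator transcripts were the smaller pool in all 3 WT libraries, with ratios of 0.425, 0.263 and 0.126. They were the larger pool in all 3 *Esrra*-/- libraries, with ratios of 1.40, 1.53 and 2.004. The divisor is mostly *Esrra*, the targeted gene, so this reversal follows from its fall. It is not a result about the coactivators and was not tested.

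*Ppargc1a* encodes PGC-1α, the inducible coactivator that responds to cold, fasting and exercise in other tissues. It was the most abundant of the 3 coactivators in every library. Its values were 12.4, 11.3 and 7.42 FPKM in WT and 8.55, 7.995 and 14.1 FPKM in *Esrra*-/-. The lowest WT value and the highest *Esrra*-/- value were both those of replicate 3, and the genotypes overlapped. Over all 6 libraries the log2 fold change was −0.04 (95% interval −0.68 to 0.60, adjusted p = 0.97 from limma). In the 4 libraries with Y-linked transcripts both *Esrra*-/- values lay below both WT values, with a log2 fold change of −0.52 (adjusted p = 0.314 from limma), short of the 0.58 of a call.

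*Ppargc1b*, for PGC-1β, a coactivator with an overlapping set of partners, had 3.63, 4.5995 and 2.97 FPKM across WT mice and 3.75, 5.28 and 2.89 FPKM across *Esrra*-/- mice. Replicate 2 was the highest and replicate 3 the lowest in each genotype, and the log2 fold change was 0.07 (95% interval −0.53 to 0.67, adjusted p = 0.941 from limma). *Ppargc1b* was 0.292, 0.406 and 0.400 of *Ppargc1a* in WT and 0.439, 0.661 and 0.205 of it in *Esrra*-/-, so this ratio overlapped as well. *Pprc1*, for the PGC-1-related coactivator that is induced in growing cells, had 5.46, 4.01 and 2.73 FPKM across WT mice and 3.05, 4.29 and 2.19 FPKM across *Esrra*-/- mice. The genotypes overlapped here too, with a log2 fold change of −0.34 (95% interval −1.08 to 0.40, adjusted p = 0.727 from limma). The size of this difference rested on single libraries, from −0.60 without WT replicate 3 to −0.11 without WT replicate 1.

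*Perm1* was low, and the filter on low values kept it out of the test. It had 0.478, 0.542 and 0.337 FPKM across WT mice and 0.624, 0.658 and 0.611 FPKM across *Esrra*-/- mice. All 3 *Esrra*-/- values lay above all 3 WT values, as was the case for 4.07% of the 3514 genes with a mean between 0.1 and 1 FPKM. The means were 0.452 ± 0.104 and 0.631 ± 0.0241 FPKM (SD, n = 3 each; two-sided exact permutation test, p = 0.1, adjusted over 9 genes 0.45). With no filter on low values limma put the difference at 0.42 on the log2 scale (adjusted p = 0.725, standard error 0.27). Summed muscle markers ran from 7.55 to 21.9 FPKM in WT and from 12.0 to 39.4 FPKM in *Esrra*-/-, of which 1 of 10 was listed at 0 in all libraries and *Acta1* was the most abundant. Their part in the level of *Perm1* was not tested.

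**Figure D3:**
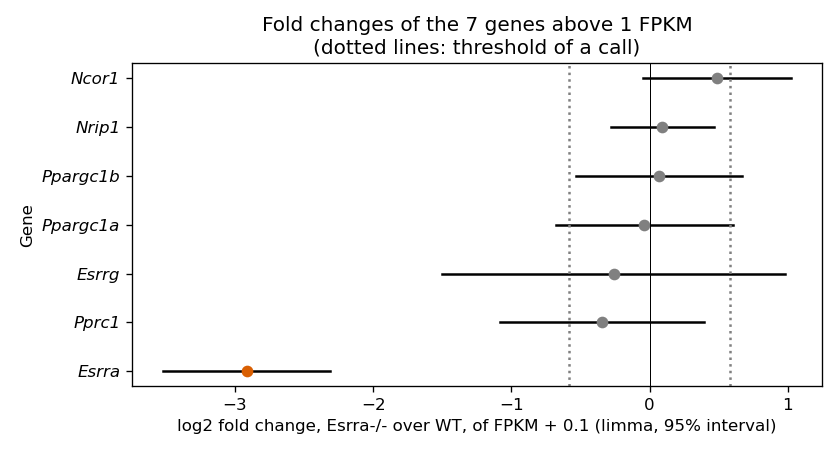
Log2 fold change of FPKM + 0.1, *Esrra*-/- over WT, with the 95% interval from limma for the 7 genes above a mean of 1 FPKM; dotted lines mark the 0.58 needed for a call. The interval of *Esrra* ends at −2.32, and the intervals of the other genes include 0.

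*Ncor1* encodes a scaffold that brings the histone deacetylase HDAC3 to nuclear receptors, and was the most abundant coregulator of the set. Its values were 54.1, 67.3 and 43.8 FPKM in WT and 78.1, 94.9 and 59.1 FPKM in *Esrra*-/-. Means (± SD, n = 3) were 55.1 ± 11.8 FPKM for WT and 77.4 ± 17.9 FPKM for *Esrra*-/-, and the ranges overlapped through *Esrra*-/- replicate 3, which lay below WT replicate 2. The log2 fold change was 0.49 (95% interval −0.05 to 1.02, adjusted p = 0.5 from limma; two-sided exact permutation test, p = 0.2). Among the 4 libraries with Y-linked transcripts both *Esrra*-/- values lay above both WT values, with a log2 fold change of 0.51, and in the remaining pair the *Esrra*-/- value was also the higher. With the Y-linked transcripts as a covariate the adjusted p was 0.165 in limma, and with the replicate number as a block it was 0.0885. Without WT replicate 2 or without *Esrra*-/- replicate 3 the gene passed the rule of a call, at log2 fold changes of 0.64 and 0.67. *Ncor1* shares 12026 bases with *Ttc19* on the opposite strand, and *Ttc19* had 10.9 to 14.7 FPKM in WT and 11.003 to 13.8 FPKM in *Esrra*-/-.

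*Nrip1*, for the corepressor RIP140, a brake on genes of fat oxidation, was the steadiest of the 9 genes listed above 0. It had 10.2, 8.77 and 7.85 FPKM across WT mice and 10.3, 10.3 and 7.97 FPKM across *Esrra*-/- mice, a coefficient of variation of 12.9% over the 6 libraries. Replicate 3 was the lowest in both genotypes, and the log2 fold change was 0.09 (95% interval −0.28 to 0.46, adjusted p = 0.864 from limma). With 1 library left out this value ran from 0.000693 without WT replicate 3 to 0.213 without *Esrra*-/- replicate 3, and the gene was called in none of these fits. Relative to *Ppargc1a*, the coactivator that it opposes, it stood at 0.823, 0.775 and 1.06 in WT and at 1.21, 1.29 and 0.566 in *Esrra*-/-.

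*Prox1*, a homeobox corepressor of these receptors that also marks lymphatic endothelium and part of the secretory cells, was below the filter on low values, at the 39.1th percentile of all genes in WT and the 37.8th in *Esrra*-/-. It had 0.117, 0.211 and 0.0469 FPKM across WT mice and 0.0413, 0.140 and 0.110 FPKM across *Esrra*-/- mice, which overlap. Without the filter limma put the difference at −0.16 on the log2 scale (adjusted p = 0.917, standard error 0.35). The 6 markers of lymphatic endothelium summed to 2.12 to 2.89 FPKM in WT and 2.26 to 3.33 FPKM in *Esrra*-/-, most of it *Lyve1*, with *Ccl21a* listed at 0 in every library. The 12 enteroendocrine markers summed to 282 to 448 FPKM in WT and 294 to 362 FPKM in *Esrra*-/-, and the 10 tuft markers to 21.7 to 35.6 and 20.4 to 30.5 FPKM. Their part in the level of *Prox1* was not tested.

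By their WT means the genes ranked *Esrra*, *Ncor1*, *Ppargc1a*, *Nrip1*, *Pprc1*, *Ppargc1b*, *Esrrg*, *Perm1*, *Prox1* and *Esrrb*. The neighbours whose WT ranges overlapped were *Esrra* and *Ncor1*, *Ppargc1a* and *Nrip1*, and *Pprc1* and *Ppargc1b*. *Ncor1* was below *Esrra* in 2 of the 3 WT libraries. In *Esrra*-/- the order began with *Ncor1*, followed by *Ppargc1a*, *Nrip1* and *Esrra*, whose means of 10.2, 9.54 and 9.50 FPKM did not separate, since the range of each overlapped that of its neighbour.

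**Figure D4:**
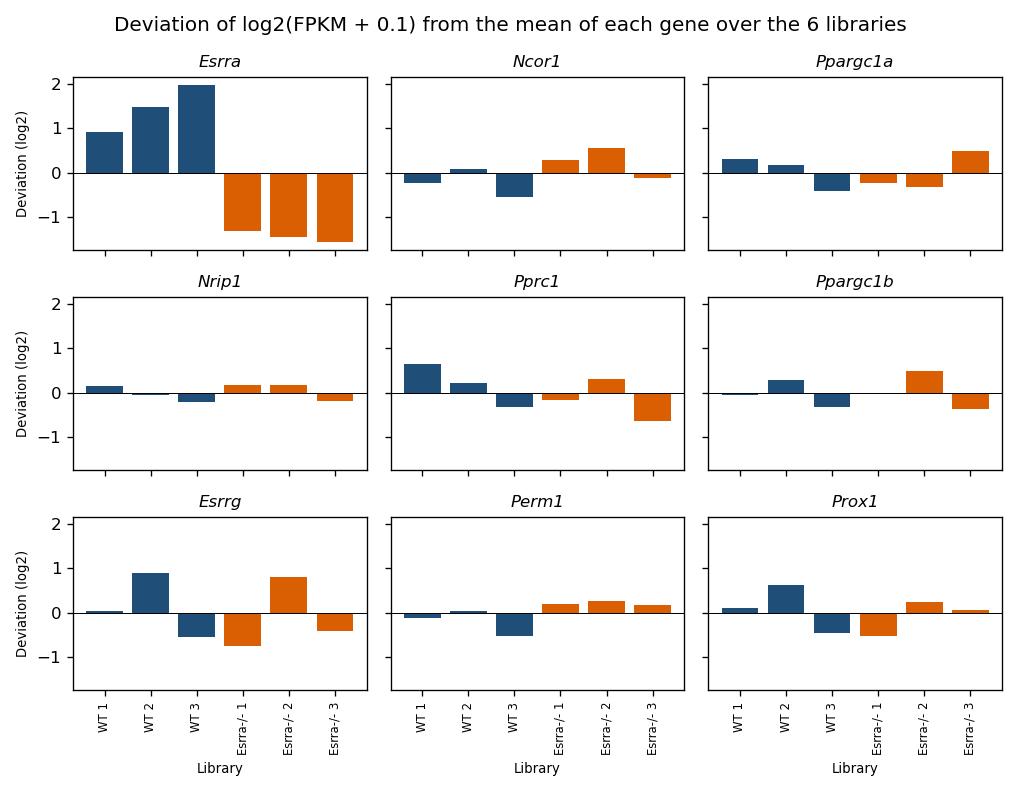
Deviation of log2(FPKM + 0.1) from the mean of each gene over the 6 libraries, with WT in blue and *Esrra*-/- in orange. The bars of *Esrra* and *Perm1* separate by genotype, those of the other genes overlap between genotypes, and WT replicate 3 was the lowest WT library for 8 of the 9 genes.

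Several genes had their extremes in the same mice. WT replicate 3 was the lowest WT library for 8 of the 9 genes listed above 0, all but *Esrra*, and *Esrra*-/- replicate 3 the lowest of its genotype for 6 of 9. Replicate 2 was the highest in 5 of 9 genes in WT and in 6 of 9 in *Esrra*-/-. The replicate 3 libraries are those without Y-linked transcripts and those with scaling factors of 0.833 and 0.827. They also had the highest villus marker sums of their genotype, 65563 FPKM in WT and 69674 FPKM in *Esrra*-/-. Their crypt marker sums were the lowest of their genotype, 228 and 119 FPKM, and so were their Paneth marker sums. The part of these traits in the levels of the genes was not tested.

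The genes most like each member were taken as those with the smallest root mean square difference between log2 profiles centred on each gene, over 10589 genes and 6 libraries. For *Esrra* they were *Cpne8* and *Prelp*, at 0.700 and 0.730, against a median of 1.52 over all genes, and they were the nearest of all genes compared. *Nrip1* was closest to *Rexo1*, at 0.0345, where the median was 0.293. *Ncor1* was closest to 4930539E08Rik and *Gjc3*, at 0.0617 and 0.0810, and *Ppargc1b* to *Asxl1* and *Eif2c1*, at 0.0687 and 0.0832. *Ppargc1a* was closest to *Pfkfb3*, a regulator of glycolysis, and *Chst4*, at 0.138 and 0.152. *Esrrg* was closest to *Art2b* and *Dtx1*, at 0.0931 and 0.157, and *Pprc1* to *Wdr85* and *Slc39a8*, at 0.0947 and 0.107.

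Of 22 other coactivators and corepressors of nuclear receptors, all of them tested, 1 was called lower and 0 higher, close to the 4.63% of all genes called, with a median log2 fold change of 0.07, where the median of all genes tested was 0.03. Their most abundant member, the corepressor *Ctbp1*, averaged 55.8 ± 1.18 FPKM (SD, n = 3) in WT mice and 55.7 ± 5.38 FPKM in *Esrra*-/- mice. The gene called lower was *Prmt1*, an arginine methyltransferase that also methylates PGC-1α. It had 22.4, 24.0 and 18.2 FPKM across WT mice and 12.97, 14.5 and 14.0 FPKM across *Esrra*-/- mice, with no overlap. The log2 fold change of *Prmt1* was −0.63 (95% interval −0.96 to −0.30, adjusted p = 0.256 from limma), and it was −0.55, short of a call, without WT replicate 2.

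Of 22 transcription factors on which PGC-1 proteins dock, 21 were tested and 0 were called in limma, with 16 positive and 5 negative log2 fold changes and a median of 0.07. An unadjusted p under 0.05 was reached by 1 of the 21, against 10.8% of all genes, and with 4.63% of all genes called, a count of 0 among so few does not set the list apart. *Hnf4a*, the master regulator of enterocyte genes and the most abundant of them, averaged 180.0 ± 13.8 FPKM (SD, n = 3) in WT mice and 179.7 ± 5.90 FPKM in *Esrra*-/- mice. *Nr1h3*, the oxysterol receptor LXRα, singled out after its values were seen, was just short of a call. It had 42.6, 35.7 and 53.2 FPKM across WT mice and 63.6, 57.99 and 73.0 FPKM across *Esrra*-/- mice, without overlap. Its unadjusted p passed, but its log2 fold change of 0.576 (adjusted p = 0.356 from limma) was under the threshold. It passed both without WT replicate 3, at 0.72, and without *Esrra*-/- replicate 1 or 2, at 0.59 and 0.65. Groups without overlap and with *Esrra*-/- higher were found for 8.45% of the genes tested. The list of enzymes that phosphorylate, acetylate or otherwise modify PGC-1 proteins also holds *Creb1*, a transcription factor, and its coactivator *Crtc2*, which are not enzymes. Of its 22 genes, 21 were tested and 0 were called in limma, against 4.63% of all genes, with a median of 0.02. An unadjusted p under 0.05 was reached by 1 of them, against 10.8% of all genes. The most abundant, the protein kinase A subunit *Prkaca*, had 36.7 ± 8.21 and 38.9 ± 4.59 FPKM.

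**Figure D5:**
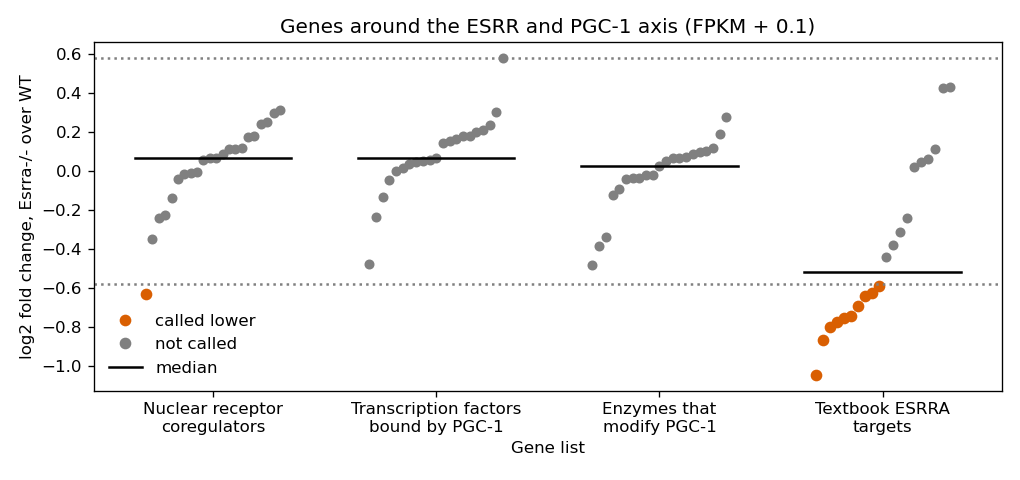
Log2 fold changes, *Esrra*-/- over WT, of the genes tested in 4 lists around the receptors, sorted within each list; orange points were called lower, grey points were not called, and black lines are medians. In the list of textbook targets 10 of 20 genes were called lower, and in the other lists 1, 0 and 0 were called.

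The textbook targets of ESRRA differed from these lists in their counts. Of 22 such genes 20 were tested, 10 were called lower and 0 higher, against 3.28% of all genes tested called lower, and the median log2 fold change was −0.52. The genes were chosen with earlier results of these data known, and the 10 called are *Cycs*, *Atp5b*, *Idh3a*, *Sdhb*, *Fh1*, *Cox5b*, *Ndufb4*, *Slc25a4*, *Sirt3* and *Ckmt1*, all of which encode mitochondrial proteins. Without WT replicate 3 the count was 5 and without *Esrra*-/- replicate 1 it was 4. *Cycs*, the electron carrier cytochrome c, had 75.7, 79.3 and 100.9 FPKM across WT mice and 37.8, 36.4 and 50.2 FPKM across *Esrra*-/- mice, a log2 fold change of −1.04 (95% interval −1.47 to −0.61, adjusted p = 0.165 from limma). *Sirt3*, the main deacetylase of the mitochondrial matrix, had 9.70, 9.23 and 9.18 FPKM across WT mice and 4.59, 5.07 and 6.53 FPKM across *Esrra*-/- mice, a log2 fold change of −0.80 (95% interval −1.16 to −0.44, adjusted p = 0.195 from limma). The genotypes did not overlap for either gene.

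The targets outside respiration gave other values. *Apoa4*, an apolipoprotein of chylomicrons and the most abundant of the list, averaged 15554 ± 3509 FPKM (SD, n = 3) in WT mice and 20588 ± 1791 FPKM in *Esrra*-/- mice, a difference of 0.42 on the log2 scale (adjusted p = 0.696 from limma). Log2 fold changes were 0.43 for *Pdk4*, the kinase that shuts pyruvate out of the TCA cycle, 0.05 for *Acadm*, an enzyme of fatty acid oxidation, and −0.31 for *Tfam*, the packaging factor of mitochondrial DNA, and none was called. Within 1000 bases of the gene start, 13 of the 22 targets (59.1%) held AAGGTCA, against 29.4% of all genes, and 7 held TCAAGGTCA. The list was made of known ESRRA targets, so this share is not independent evidence of binding, and it was not tested. Among the genes called lower, *Atp5b*, *Idh3a*, *Sdhb*, *Ndufb4*, *Sirt3* and *Ckmt1* held TCAAGGTCA. In the lists of other coregulators, docking factors and modifying enzymes 27.3%, 18.2% and 18.2% of the genes held AAGGTCA.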

How the data were processed

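RNA from EDTA-released duodenal epithelium of 3 WT and 3 *Esrra*-/- mice was made into TruSeq v2 libraries, a kit that does not mark strand. Reads were checked with FastQC 0.11.3 and quantified by kallisto on mm9, and the authors used DESeq2 to calculate the FPKM that they deposited. The annotation was not given in the sources used here. The deposited table of the authors' own comparison (mean normalized count, log2 fold change, standard error, statistic, p and adjusted p) was not used.

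Genes were found by symbol, *Perm1* under its older symbol 2310042D19Rik. Genes with a mean FPKM above 1 (10596 of 22611) were tested on log2(FPKM + 0.1) with limma 3.58.1 in R 4.3.3 (trended eBayes, no covariate, Benjamini-Hochberg adjustment over all genes tested), after the fit was tested on simulated data. Calls used the limits of the study, 0.58 in log2 fold change and 0.05 in unadjusted p. Named genes were the 10 genes, the 2 called genes of smallest p in each direction and the most abundant gene of each list, and the 2 genes of most similar profile, of which 1 is not reported here. Other named genes were chosen after their values were seen. The 10 genes and the lists were chosen with earlier results of these data known. Motifs were searched in mm9 around gene starts of GENCODE M1. Alternatives changed the pseudocount, filter, scaling, covariate or libraries. FPKM carry no fragment numbers, so the spread between mice gives the precision.

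The main fit did not pair the libraries by replicate number. The deviations from the genotype means correlated across genes at 0.012, 0.263 and 0.376 for the numbers 1, 2 and 3. Between unlike numbers the correlations ran from −0.366 to 0.182. Libraries of number 2 and of number 3 were thus more alike than unlike numbers were, and those of number 1 were not. Whether the numbers stand for a pairing of the mice is not stated.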

Additional observations from a re-analysis of the deposited data

Results flagged for a closer look

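The genotype difference of *Ppargc1a* ran in opposite directions in the libraries with and without Y-linked transcripts. It was −0.52 on the log2 scale in the 4 libraries with such transcripts, where both *Esrra*-/- values were below both WT values, and 0.92 in the pair without them, where WT replicate 3 had 7.42 FPKM and *Esrra*-/- replicate 3 had 14.1 FPKM. The difference between the 2 was 1.43 (limma interaction term, standard error 0.21, unadjusted p under 0.05, adjusted p = 0.419 over all genes tested), a test added after the values were seen. It fails the correction for multiple testing. An unadjusted p under 0.05 was reached by 5.29% of the 10596 genes and an adjusted p under 0.05 by 0. The set without Y-linked transcripts holds 1 mouse of each genotype, so the absence of Y-linked transcripts and the individual mouse cannot be told apart. Of the other 6 genes tested 0 had an unadjusted interaction p under 0.05.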

How the results depend on the processing

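The call of *Esrra* held under every alternative run, and its log2 fold change ran from −3.19 to −2.60. No other member was called in the alternatives, except that *Ncor1* was called higher without WT replicate 2 and without *Esrra*-/- replicate 3, so the count of members higher ran from 0 to 1. Counts over all genes were 348 lower and 143 higher, 528 and 277 with no filter on low values, and 2 and 2 at an adjusted p under 0.05. With 1 library left out they ran from 252 to 533 lower, the highest without *Esrra*-/- replicate 2, and from 143 to 214 higher. With the replicate number as a block they were 441 and 192, and no call of a member changed.

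With 1 library left out the log2 fold change ran from −0.72 to 0.13 for *Esrrg*, from −0.29 to 0.11 for *Ppargc1a*, from −0.15 to 0.27 for *Ppargc1b*, from −0.0763 to 0.0624 for *Ctbp1*, from −0.0567 to 0.0541 for *Hnf4a* and from −0.0353 to 0.273 for *Prkaca*, and the sign of each turned. The count of lower genes ran from 4 to 10 for the textbook targets and from 0 to 1 for the other coregulators. For the docking factors it ran from 0 to 1 lower (*Ppard* or *Sox9*) and from 0 to 1 higher (*Nr1h3*). Without both libraries that lack Y-linked transcripts 1 docking factor was lower (*Ppard*) and 1 higher (*Nr1h3*). The cause was not tested.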
